A study of Rattus norvegicus with 12 samples.

Results

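The posterior cricoarytenoid muscle (PCA) is the only muscle that opens the vocal folds, and the adductor complex (AC) is the group of muscles that closes them. Both are driven by the recurrent laryngeal nerve. Here the PCA and the AC were compared after that nerve had been cut, to ask which differences between the muscles were still measured without it. The comparison used the 3 arrays titled as PCA after nerve injury and the 3 titled as AC after nerve injury, 6 of the 12 arrays in the series, and all 14324 genes with a probe set of a single gene symbol. The other 6 arrays, 3 of PCA and 3 of AC from animals operated on without nerve injury, gave the control difference between the muscles.

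All animals were male F344 rats, 10 in each surgery group, and all were given ketamine and xylazine. In the injury groups the nerve on one side was cut and 1 cm of it was taken out, and in the control groups the operation was done without injuring the nerve. Tissue was taken 1 week later, as 30 to 50 mg per specimen, and 100 ng of total RNA was labelled for a whole-transcript rat gene array. The labels do not say which animal gave an array, whether specimens were pooled, or whether PCA and AC arrays share animals, so a p-value measures only the spread between these arrays. Values are log2 expression, and a difference of 1 is 2-fold. A gene was called where limma gave a Benjamini-Hochberg adjusted p under 0.05 over all genes. Differences are PCA minus AC, so a positive value is higher in PCA.

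Skeletal muscle that loses its nerve shrinks, changes its contractile and metabolic genes, and makes acetylcholine receptor subunits outside the synapse. Macrophages enter, and cells resting along the fibres divide. Muscles differ in their share of slow and fast fibres, each with its own myosins and troponins, and laryngeal muscles also carry specialised fast myosins. A dissected specimen of these small muscles can also hold mucosa, cartilage, fat or gland, and in bulk tissue fewer cells of a type and less RNA per cell cannot be told apart.

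The labelled tissue was checked first. The 12 measured striated muscle markers averaged 11.60 to 12.16 in injured PCA and 11.76 to 12 in injured AC, against 12.29 to 12.47 and 11.93 to 12.22 in the controls, so the muscle genes were high in every array. Markers of other tissues were measured too. The 16 thyroid and parathyroid markers had a mean of 9.70 in the second injured PCA array, of 8.41 in the second injured AC array, and of 6.35 to 6.78 in the 4 other injured arrays. The 15 markers of squamous epithelium, the lining of the vocal folds, averaged 10.08 to 10.84 over the 6 injured arrays. In controls they averaged 7.24 to 9.73 in PCA and 10.77 to 11.31 in AC.

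A pair of injured arrays went against their labels in many genes. Across the 14324 genes, PCA injury 3 correlated best among the injured arrays with AC injury 3 (r = 0.995), and AC injury 2 correlated best with PCA injury 1 (r = 0.993). After each gene's mean over the 6 injured arrays was taken off, PCA injury 3 correlated at 0.32 and 0.31 with AC injury 1 and AC injury 3, and at -0.53 and -0.42 with PCA injury 1 and PCA injury 2. AC injury 2 correlated at 0.25 and 0.13 with PCA injury 1 and PCA injury 2, and at -0.31 and -0.55 with AC injury 1 and AC injury 3. These correlations are across genes, which are not independent replicates, and centring on 6 arrays by itself pulls them below 0. The labels were kept as given in every comparison. Counts of called genes in each main comparison are also given without both arrays, and since those arrays were set aside for their values, calls made without them are a description and no independent test.

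The genes that differed between the control muscles placed both arrays the same way. For each of the 1523 genes called between PCA control and AC control, the injured value was set against both control means. The share of genes nearer to the PCA control mean was 28.6% in PCA injury 1, 21.3% in PCA injury 2 and 9.4% in PCA injury 3. It was 7.6% in AC injury 1, 24.4% in AC injury 2 and 8.7% in AC injury 3. Over the 112 of these genes with a control difference of at least 2 on the log2 scale, the shares were 32.1%, 17.9% and 5.4% in injured PCA and 3.6%, 27.7% and 1.8% in injured AC. PCA injury 3 thus stood among the low shares with AC injury 1 and 3. AC injury 2 stood among the high shares with PCA injury 1 and 2, as the bars of genes nearer the PCA control mean show. The squamous marker mean split these arrays in the same way. It was 10.17, 10.59 and 10.08 in PCA injury 1, PCA injury 2 and AC injury 2. In PCA injury 3, AC injury 1 and AC injury 3 it was 10.84, 10.73 and 10.70. Of the 1523 genes 1059 were lower in control PCA, as were 14 of the 15 squamous markers. Whether the shares follow the muscle or this epithelium was not tested.

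**Figure D1:**
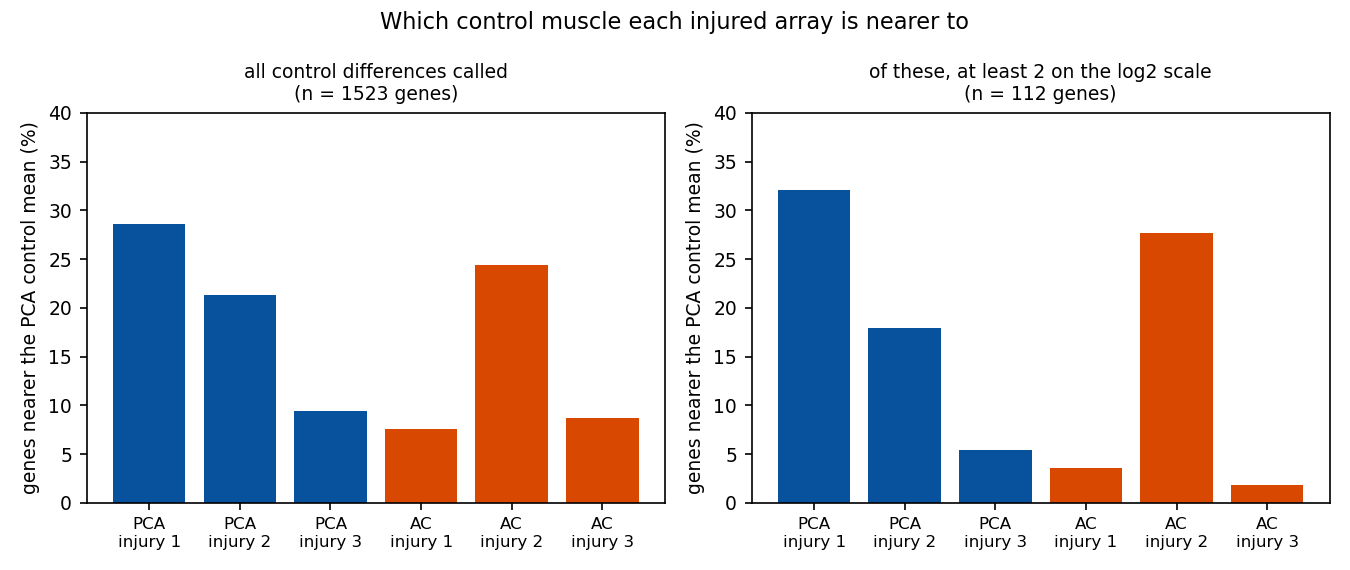
Share of genes (%) whose value in an injured array was nearer to the PCA control mean than to the AC control mean, for 1523 genes called between the control muscles and for the 112 with a difference of at least 2 (log2). Bars are single arrays, blue for injured PCA and orange for injured AC. PCA injury 3 (9.4%) and AC injury 2 (24.4%) stand with the arrays of the other muscle. The arrays of high shares also had the lower squamous marker means.

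Some of the genes with the widest range in an injured group showed it, whereas 8 of the 10 widest in injured PCA were thyroid or parathyroid genes, which were high in PCA injury 2 and AC injury 2 and are given at the end. Amy1, a salivary-type amylase, stood at 4.29 and 5.44 in PCA injury 1 and 2 but at 9.73 in PCA injury 3. It stood at 9.14 and 9.01 in AC injury 1 and 3 but at 4.38 in AC injury 2, where control PCA ranged from 4.51 to 4.96 and control AC from 8.15 to 10.92. Each injured group therefore held both a level near control PCA and a level near control AC.

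Clca4l, of the chloride channel accessory family, was 6.24, 5.44 and 9.56 in injured PCA and 10.39, 7.75 and 9.53 in injured AC. Cyp4a8, a fatty acid hydroxylase, was 5.13, 5.17 and 8.21 in injured PCA and 8.16, 5.42 and 7.74 in injured AC. Mcpt1, a mast cell protease, was 7.34, 7.56 and 10.75 in injured PCA and 10.17, 7.31 and 10.37 in injured AC. In all 3 genes PCA injury 3 was high with AC injury 1 and 3.

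Upk3bl1, a uroplakin-like gene, was 7.11, 7.51 and 9.41 in injured PCA against 9.88, 6.86 and 9.45 in injured AC. Not every gene placed these arrays so. Cmahp was 8.09, 7.75 and 7.88 in injured PCA and 8.97, 8.90 and 8.70 in injured AC, and Vsig2 was 7.50, 7.28 and 7.21 against 8.11, 8.09 and 7.89, so that in both genes the arrays separated by their labels.

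**Figure D2:**
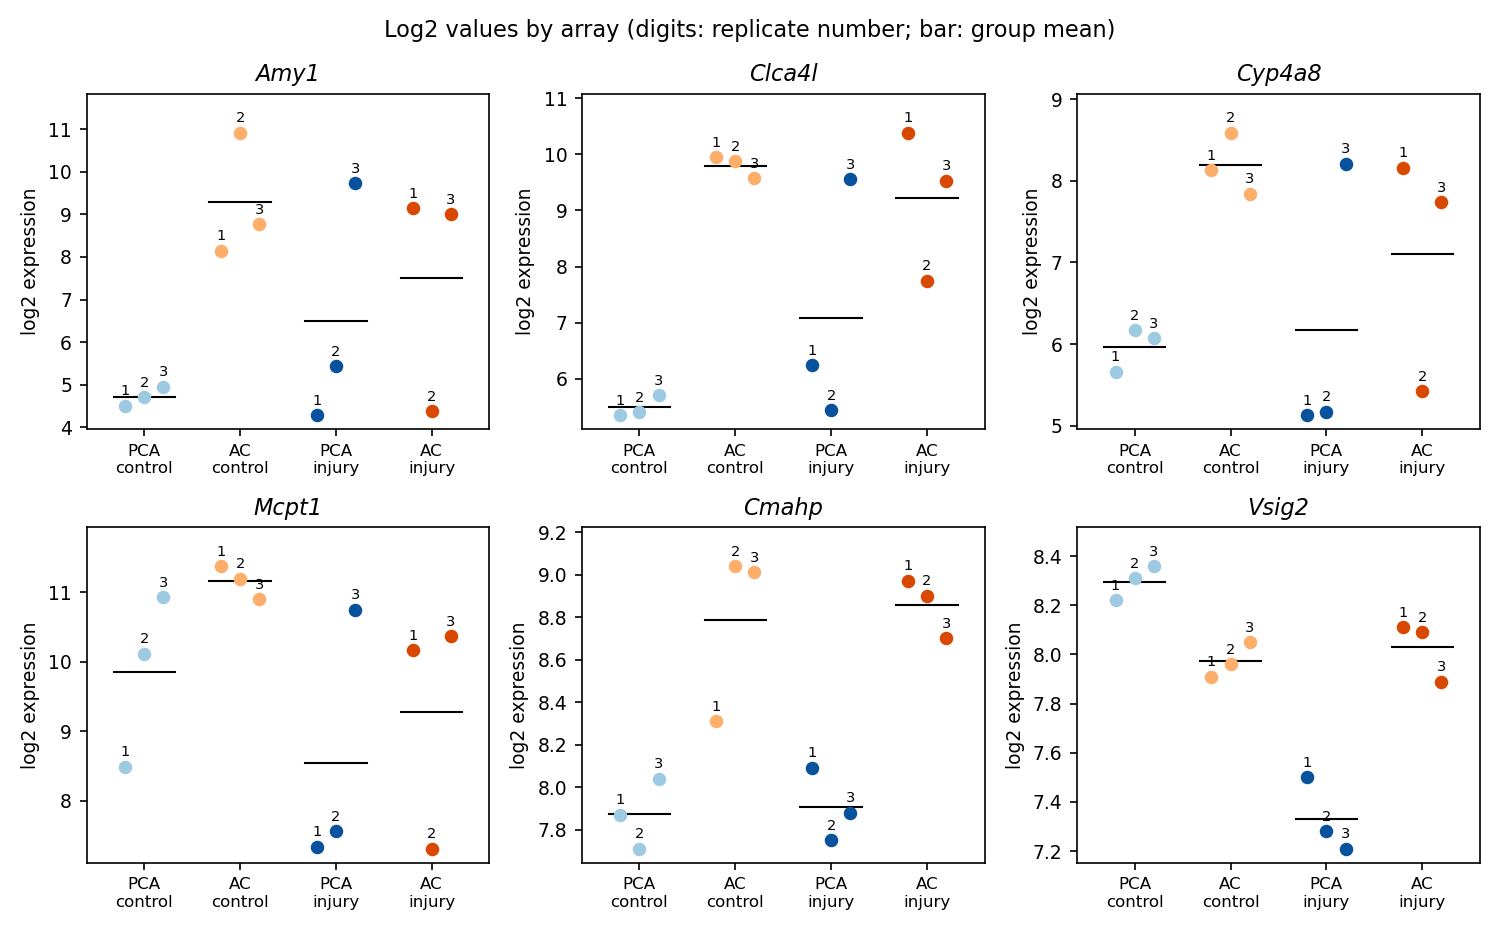
Log2 expression of 6 genes in each of the 12 arrays, with the replicate number above each point and the group mean as a bar. In Amy1, Clca4l, Cyp4a8 and Mcpt1, PCA injury 3 lies with AC injury 1 and 3, and AC injury 2 is the lowest of its group, whereas Cmahp and Vsig2 separate the injured muscles by label.

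Between the injured muscles no gene was called. By limma 0 of 14324 genes passed, so the background is 0%, and the smallest adjusted p was 0.16, that of Vsig2. At an unadjusted p under 0.05 there were 516 genes (3.6%), 174 higher (1.21%) and 342 lower (2.39%) in PCA. The 3 arrays of each muscle did not overlap in 929 genes (6.49%), 316 higher (2.21%) and 613 lower (4.28%) in PCA. The median of the absolute difference was 0.0733, against 0.147 between the control muscles. A difference of at least 1 was reached by 21 genes in the injured muscles and by 400 in the controls.

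The intervals show how far this absence of calls goes. The median half-width of the 95% confidence interval of an injured difference was 0.237, and for 13899 genes (97% of all) the interval lay wholly within 2-fold in either direction. Among the 1523 genes called between the controls this held for 1400 (91.9%). Their median control difference was 0.43 in those higher in PCA and -0.68 in those lower. An interval within 2-fold can still hold a difference of that size. Without PCA injury 3 and AC injury 2 the median absolute injured difference was 0.125.

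Without PCA injury 3 and AC injury 2, limma called 38 genes (0.265%), 5 higher (0.0349%) and 33 lower (0.23%) in injured PCA, and 1988 genes had an unadjusted p under 0.05. Leaving out PCA injury 3 alone gave 1462 genes at that level and leaving out AC injury 2 alone gave 697, with 0 called in both cases.

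The control muscles differed widely. Of the 14324 genes, 1523 (10.6%) were called, 464 higher (3.24%) and 1059 lower (7.39%) in PCA, and the groups did not overlap in 4823 (33.7%). With array medians centred the split was 668 higher and 930 lower, and with the values quantile normalized again it was 627 and 931. Without PCA injury 3 and AC injury 2, which enter only through the shared spread, 1761 were called, 656 higher and 1105 lower. The squamous markers moved with this difference: 14 of 15 were called lower in control PCA, where 7.39% of all genes were. With their mean in each array as a covariate 2 genes were called. That mean was 7.24 to 9.73 in the PCA controls and 10.77 to 11.31 in the AC controls. It separates the control muscles without overlap, so this fit cannot tell the markers from the muscle. Without the 3 arrays of high thyroid transcripts 812 were called.

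Of the 1523 control differences, 0 were called again between the injured muscles by limma, and 51 (3.35%) had an unadjusted p under 0.05 in the same direction and 14 (0.919%) in the opposite one. Together that is 4.27% of them, against 3.6% of all genes. Of the 464 higher in control PCA, 8 (1.72%) stayed higher at that level, against 1.21% of all genes, and 9 turned lower. Of the 1059 lower ones 43 (4.06%) stayed lower, against 2.39% of all genes, and 5 turned higher. The share that stayed higher thus lay near that of all genes, and more of these genes turned than stayed. The share that stayed lower lay above that of all genes, though genes are not independent replicates. Without the 2 arrays that stood apart, 23 of 1761 were called again in the same direction, 20 lower and 3 higher in PCA, which is 1.31% of the control calls and 60.5% of the 38 injured calls.

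The 464 genes higher in control PCA had a median control difference of 0.43 and a median injured difference of 0.00. Of them 237 (51.08%) kept a positive sign, which 44.6% of all genes had, and the injured groups did not overlap in 13 in the same and 15 in the opposite direction, where 2.21% of all genes lay higher and 4.28% lower without overlap. Their mean level was 8.26 to 8.31 in the PCA controls and 7.73 to 7.80 in the AC controls. It was 7.71, 7.81 and 7.68 in injured PCA and 7.72, 7.80 and 7.68 in injured AC, so that all 6 injured arrays lay near the AC controls.

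The 1059 genes lower in control PCA went from a median of -0.68 to -0.06. Of them 758 (71.58%) kept a negative sign, which 54.2% of all genes had, and the injured groups did not overlap in 64 (6.04%) in the same and 11 in the opposite direction, against the same 4.28% and 2.21% of all genes. Their mean level was 7.86, 8.24 and 7.89 in the PCA controls and 9.10, 8.87 and 8.91 in the AC controls. It was 8.69, 8.72 and 8.90 in injured PCA and 8.92, 8.72 and 8.93 in injured AC. Without the 2 arrays the medians were 0.05 and -0.14, and 278 of 464 and 843 of 1059 kept their sign. Leaving out arrays chosen for their values favours such agreement with the controls. Since the genes were chosen on the control values, their control medians are a description. The plot of both differences shows the flat band that results.

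**Figure D3:**
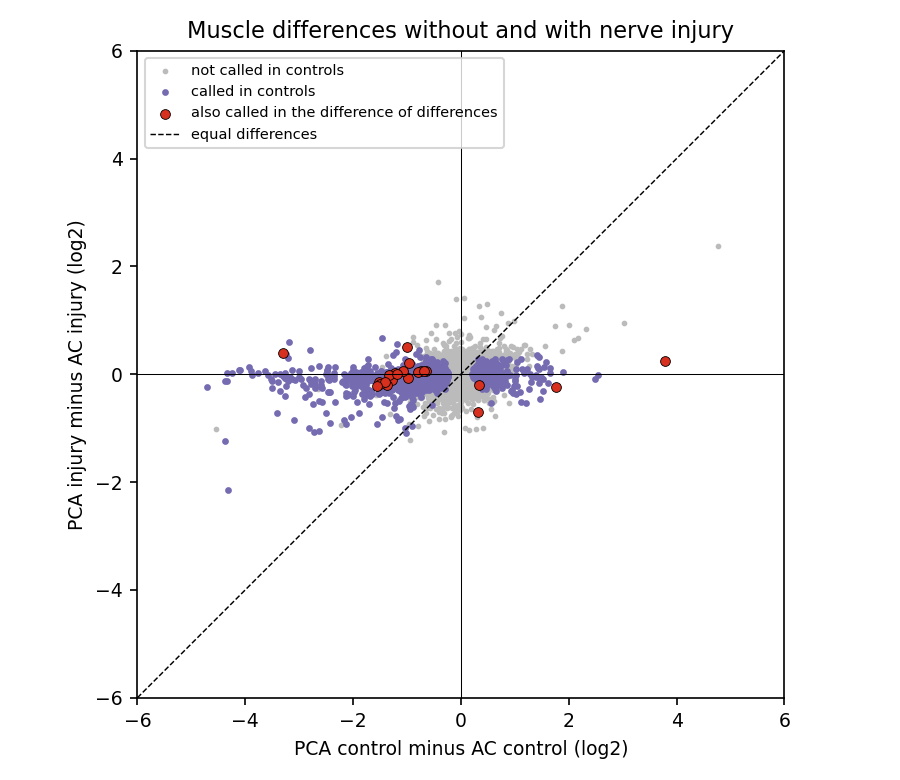
PCA minus AC (log2) in controls against the same difference after nerve injury, for 14324 genes. Purple points were called in controls and red points also in the difference of differences; the dashed line marks equal differences. Control differences reach beyond 4 in either direction, and most of the same genes lie near 0 on the injured axis.

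Whether a control difference had changed was tested as the difference of differences, the injured minus the control value. Limma called 22 genes (0.154%), 18 in which the injured value lay above the control value (0.126%) and 4 in which it lay below (0.0279%). At an unadjusted p under 0.05 there were 2247 (15.7%). All 22 were also called in controls, whose values enter both tests. In 10 of them the injured difference was smaller with the same sign, in 12 it had the opposite sign, and in 0 it was larger. This count moved with single arrays. It was 0 without PCA injury 3 and AC injury 2, 0 with each array's squamous marker mean as a covariate, and 0 without the 3 arrays of high thyroid transcripts. It was 8 without PCA injury 3, 3 without AC injury 2, 406 without PCA control 2, and 0 without AC control 1, AC control 3 or AC injury 1. Leaving out AC control 2 gave 5, PCA control 1 gave 6, PCA control 3 gave 1, PCA injury 1 gave 7 and PCA injury 2 gave 12.

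Of the 22 genes 4 are in the cell cycle list and 6 are histone genes. Of the cell cycle genes Top2a, a DNA topoisomerase, stood at 6.73, 6.82 and 6.67 in control PCA and 8.56, 8.07 and 8.24 in control AC. After injury it stood at 8.43, 8.05 and 8.44 in PCA and 8.46, 8.65 and 8.45 in AC. Both injured groups lay near control AC, and they did not overlap, with 8.44 the highest in PCA and 8.45 the lowest in AC. The control difference was -1.55 ± 0.14 (SE), the injured one -0.21 ± 0.14, and the change 1.34 ± 0.19 (limma adjusted p = 0.0327).

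Ccna2, cyclin A2, moved from -1.52 ± 0.15 in controls to -0.15 ± 0.15 after injury (adjusted p of the change by limma 0.0419). Kif23, a kinesin of cytokinesis, moved from -1.50 ± 0.15 to -0.18 ± 0.15 (limma adjusted p = 0.0458), and Nusap1, a spindle protein, from -1.40 ± 0.14 to -0.15 ± 0.14 (limma adjusted p = 0.0458). In all 3 the injured 95% intervals included 0. The near-identical copies of the 6 histone genes may not be told apart by the probes, so that single members are uncertain. Hist1h2ail1, for example, was 9.67, 10.13 and 9.92 in control PCA, 11.31, 11.22 and 11.21 in control AC, and 11.16 to 11.42 in all 6 injured arrays.

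Il1rn, the interleukin-1 receptor antagonist, had the largest change among the 22 called genes. It was 6.27, 7.62 and 5.85 in control PCA, 10.19, 9.69 and 9.73 in control AC, 10.86, 9.87 and 10.42 in injured PCA, and 9.83, 9.91 and 10.25 in injured AC. The difference went from -3.29 ± 0.39 to 0.39 ± 0.39 (SE), a change of 3.68 ± 0.55 (limma adjusted p = 0.0372). Rab7b, a small GTPase of the endosome, went from -1.0 ± 0.17 to 0.50 ± 0.17 (limma adjusted p = 0.0458), and its injured groups did not overlap: 9.18, 8.79 and 8.71 in PCA against 8.21, 8.33 and 8.64 in AC. Ass1, argininosuccinate synthase, went from -0.97 ± 0.12 to 0.21 ± 0.12 (limma adjusted p = 0.0327).

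On the other side, Ucp1, the uncoupling protein of brown fat, lost a difference that favoured control PCA. It was 8.71, 9.73 and 8.15 in control PCA, 4.90, 5.02 and 5.31 in control AC, 5.25, 5.87 and 5.09 in injured PCA and 5.16, 5.49 and 4.84 in injured AC. The difference fell from 3.79 ± 0.34 to 0.24 ± 0.34 (limma adjusted p of the change 0.0295). Tnnc1, the troponin C of slow fibres and heart, was 9.30, 10.19 and 9.75 in control PCA and 7.90 to 8.09 in control AC. In injured PCA it was 8.46, 8.30 and 8.79, which overlapped the 8.37, 8.99 and 8.89 of injured AC. The difference went from 1.77 ± 0.22 to -0.23 ± 0.22 (limma adjusted p = 0.0419).

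Vsig2, an immunoglobulin-domain membrane protein, went from 0.32 ± 0.09 to -0.70 ± 0.09 (limma adjusted p of the change 0.0263), since injured PCA lay between 7.21 and 7.50 while the control arrays and injured AC lay between 7.89 and 8.36. Kcns2, a potassium channel subunit, went from 0.33 ± 0.06 to -0.19 ± 0.06 (limma adjusted p = 0.0458). In both genes the sign of the muscle difference turned, and in both the 3 injured PCA arrays lay below all 3 of injured AC.

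**Figure D4:**
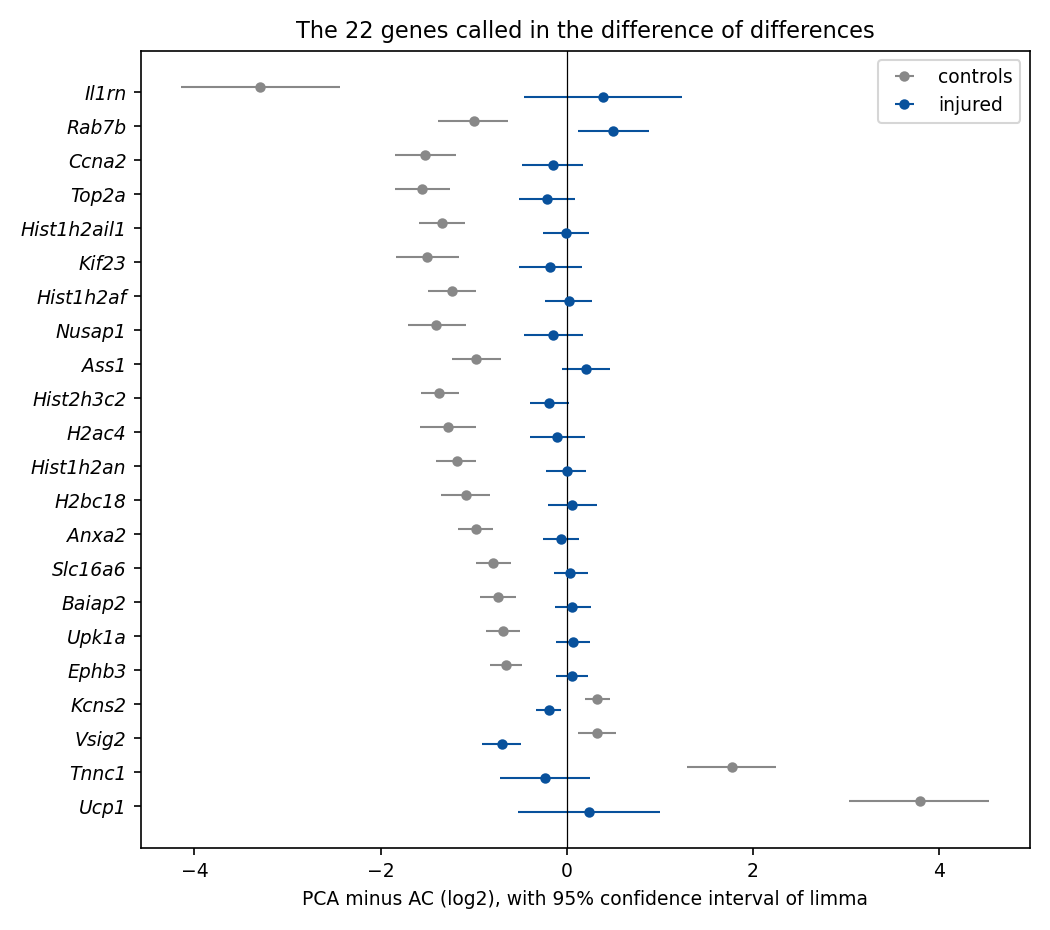
PCA minus AC (log2) with the 95% confidence interval of limma for the 22 genes called in the difference of differences, in controls (grey) and after injury (blue). Most injured values lie within 0.25 of 0, while Il1rn, Rab7b and Vsig2 lie further out on the side opposite to their control value.

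The promoters of these changed genes are shown because several cell division genes changed together and Ucp1 changed the other way. The RefSeq table (build GRCr8) held 17 of the 22 changed genes. Each line gives the 250 bases before the start site on the gene's own strand, 5′ to 3′, with matches in capitals.
Top2a (chr10:84473094-84473343, minus strand): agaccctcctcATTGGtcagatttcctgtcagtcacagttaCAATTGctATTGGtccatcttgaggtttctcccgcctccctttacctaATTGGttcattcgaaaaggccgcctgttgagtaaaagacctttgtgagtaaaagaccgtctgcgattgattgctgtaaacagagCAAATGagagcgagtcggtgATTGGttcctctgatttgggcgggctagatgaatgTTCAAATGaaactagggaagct
Kif23 (chr8:71320585-71320834, minus strand): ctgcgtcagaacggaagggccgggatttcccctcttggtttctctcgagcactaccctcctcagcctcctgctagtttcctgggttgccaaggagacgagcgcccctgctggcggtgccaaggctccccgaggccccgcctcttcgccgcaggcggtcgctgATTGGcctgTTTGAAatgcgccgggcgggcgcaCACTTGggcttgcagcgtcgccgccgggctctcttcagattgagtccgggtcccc
Nusap1 (chr3:127057045-127057294, plus strand): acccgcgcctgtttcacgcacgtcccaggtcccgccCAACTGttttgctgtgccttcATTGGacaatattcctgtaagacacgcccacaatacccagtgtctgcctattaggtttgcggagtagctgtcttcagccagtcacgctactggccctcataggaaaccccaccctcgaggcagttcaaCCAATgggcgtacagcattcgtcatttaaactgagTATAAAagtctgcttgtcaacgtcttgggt
Ucp1 (chr19:41721422-41721671, minus strand): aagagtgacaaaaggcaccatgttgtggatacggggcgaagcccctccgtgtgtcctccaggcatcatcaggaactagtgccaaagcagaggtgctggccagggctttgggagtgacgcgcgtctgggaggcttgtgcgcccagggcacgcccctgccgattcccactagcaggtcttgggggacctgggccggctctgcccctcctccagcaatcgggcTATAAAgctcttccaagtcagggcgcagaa
Capitals mark matches to any of 5 motifs on either strand. One is the core promoter element TATAAA. A second is the E-box of myogenic and other helix-loop-helix factors, written CANNTG. Another is the longer MEF2 motif of muscle genes. The promoters of many cell division genes hold the NF-Y box, which reads CCAAT. They can also hold a cell cycle element that reads TTTGAA. A match on the other strand appears as its reverse complement. In Top2a a match to the cell cycle element and a match to the E-box overlap.

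Top2a had 4 matches to the NF-Y box, which began 239, 201, 161 and 57 bases before the start, and Nusap1 had 2. Kif23 had 1 match to the NF-Y box and 1 to the cell cycle element. Of the 5 motifs Ucp1 had only TATAAA, which began 30 bases before the start, as did that of Nusap1. Among the 16 promoters held for the 18 cell cycle genes called lower in control PCA, 12 (75%) had the NF-Y box and 7 (43.8%) the cell cycle element, against 34.3% and 16% of all 27457 promoters. The E-box was in 75% of the 16 and 65.2% of all, and the TATAAA element in 6.2% and 13.1%. The MEF2 motif was in 1 of the 16 and in 3.4% of all. Among the 17 promoters held for the 22 changed genes, 11 (64.7%) had the NF-Y box, 6 (35.3%) the cell cycle element, 13 (76.5%) the E-box, 9 (52.9%) TATAAA and 1 (5.9%) the MEF2 motif. Both sets hold Top2a, Kif23 and Nusap1. A match is a description of these letters and not a binding site.

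Across the whole cell cycle list, 18 of 21 measured genes were called lower in control PCA, where 7.39% of all genes were, and 4 were called in the difference of differences, where 0.154% of all genes were. With the squamous marker mean as a covariate, 2 genes of all 14324 were called between the controls and 0 in the difference of differences. That mean separates the control muscles without overlap, so this fit cannot tell the markers from the muscle. After injury 0 of the 21 cell cycle genes were called, 3 lay higher and 17 lower in PCA. The median difference was -0.15, against -0.01 over all genes. The list mean was 6.68, 6.82 and 6.69 in control PCA and 7.55 to 7.87 in control AC. In the injured arrays it was 7.94, 7.62 and 7.91 in PCA and 7.92, 8.01 and 7.88 in AC, and these overlap. Ccnb2, a mitotic cyclin, was 7.55, 7.36 and 7.75 in injured PCA and 7.99, 7.93 and 7.75 in injured AC, so the groups met at 7.75, and its difference of -0.34 ± 0.13 was not called.

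Slow-fibre genes differed the other way in controls, where 6 of 13 were called higher in PCA, against 3.24% of all genes. Their median control difference was 0.70, against 0.04 over all genes. After injury 0 were called, with a median of 0.04. The list mean was 10.00 to 10.32 in control PCA and 9.09 to 9.60 in control AC. It was 9.67, 9.83 and 9.94 in injured PCA and 9.52, 9.92 and 9.72 in injured AC. Tnnt1, the slow troponin T, was 9.0, 8.99 and 9.80 in injured PCA and 9.10, 9.42 and 9.18 in injured AC, after a control difference of 1.17 ± 0.19 (limma adjusted p = 0.00449).

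Myl3, a ventricular and slow myosin light chain, was 11.19, 11.52 and 9.59 in injured PCA and 8.58, 11.20 and 9.14 in injured AC. It is another gene in which PCA injury 3 lay with AC injury 1 and 3. Its difference was 1.13 ± 0.66 over all 6 arrays and 2.50 without the 2 arrays, and it was called in neither case.

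Of the 8 measured myosin heavy chains, 4 were called higher in control PCA: Myh2 of fast oxidative fibres (1.39 ± 0.24), Myh7 of slow fibres (1.46 ± 0.35), Myh6 of heart (0.35 ± 0.10) and Myh7b (0.41 ± 0.10), with limma adjusted p-values of 0.0051, 0.023, 0.0394 and 0.0242. Of all genes 3.24% were called higher in control PCA. After injury 0 of the 8 myosin heavy chains were called. Myh2 stood at 9.62, 9.75 and 10.47 in injured PCA and at 9.90, 10.14 and 9.95 in injured AC (difference -0.05 ± 0.24, SE), and Myh7 at 8.09, 7.91 and 8.98 against 8.34, 9.14 and 7.78 (-0.09 ± 0.35). The injured groups overlapped in both.

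The fast myosins differed between single arrays rather than between muscles. Myh4, the fastest limb type, was 11.23, 12.01 and 12.83 in injured PCA and 12.32, 12.02 and 12.32 in injured AC. Myh13, the extraocular and laryngeal type, was 6.55, 8.03 and 10.32 in injured PCA and 8.48, 8.33 and 8.92 in injured AC. Embryonic Myh3 was 10.47 to 10.93 in injured PCA and 10.56 to 11.18 in injured AC, and its groups overlapped.

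The same spread ran through the fast-fibre list, in which 0 of 10 genes were called in either comparison. Its mean was 11.34, 11.76 and 12.48 in injured PCA and 12.15, 11.72 and 12.02 in injured AC, a range of 1.14 within injured PCA and 0.43 within injured AC. PCA injury 3 was inside the 12.44 to 12.62 of control PCA. Without the 2 arrays the median injured difference was -0.43, with 0 called.

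Within each injured group the metabolic lists had the same order of arrays as the fast-fibre list. The glycolysis genes averaged 10.42, 10.71 and 11.27 in injured PCA and 11.01, 10.75 and 10.93 in injured AC, and without the 2 arrays 1 of 20 was called lower. The oxidative phosphorylation genes averaged 9.99, 10.10 and 10.57 against 10.49, 10.25 and 10.40. Of these genes 34 of 35 had a negative injured difference, as did 54.2% of all genes. The median was -0.17, though 0 were called. In controls 3 of 35 were called higher in PCA, where 3.24% of all genes were, and the median was 0.17. Without the 2 arrays the median was -0.39 and 1 was called lower.

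Of 15 measured genes of the neuromuscular junction, 1 was called higher and 1 lower in control PCA, and 0 after injury. Of all genes 3.24% were called higher and 7.39% lower in control PCA. The median injured difference of the 15 was -0.09. Chrna1, the alpha subunit of the muscle acetylcholine receptor, was 11.41, 11.54 and 12.09 in injured PCA and 12.16, 11.96 and 11.73 in injured AC (-0.27 ± 0.37), against 8.96 to 10.80 and 8.99 to 9.19 in the controls. Chrng, the fetal gamma subunit, was 8.47, 8.34 and 8.95 against 9.30, 8.87 and 8.95 (-0.45 ± 0.29). Myog, myogenin, a regulator of the response to denervation, was 8.15, 7.99 and 8.93 in injured PCA and 8.79, 8.74 and 8.85 in injured AC. In each of the 3 genes PCA injury 3 was the highest of its group.

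Of the 19 granulocyte and red cell markers 13 were called lower in control PCA, where 7.39% of all genes were, with a median of -1.13. After injury 0 were called, 18 of 19 lay lower, as did 54.2% of all genes, and the median was -0.17. Ngp, a neutrophil granule protein, was 4.68 to 5.14 in control PCA and 8.78 to 9.89 in control AC. It was 4.64, 4.73 and 5.03 in injured PCA and 5.53, 5.04 and 7.55 in injured AC (-1.24 ± 0.52). The injured groups only just failed to overlap, with 5.03 the highest in PCA and 5.04 the lowest in AC. The size of the mean difference came mostly from AC injury 3 (7.55).

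Of the 18 macrophage markers 7 were called lower in control PCA, where 7.39% of all genes were. After injury 0 were called, with a median of 0.10. The list mean was 10.19, 9.80 and 9.79 in injured PCA and 9.56, 9.77 and 10.00 in injured AC. Members differed in sign. Cd68, a lysosomal marker, was 11.33, 10.80 and 10.66 in injured PCA against 9.81, 10.38 and 10.80 in injured AC, and Trem2, a receptor of phagocytes, 9.74, 9.60 and 9.13 against 8.18, 8.58 and 9.39. Cd163, the haemoglobin scavenger receptor of resident macrophages, was lower in injured PCA, at 8.92, 8.75 and 9.17 against 9.89, 9.58 and 9.70, and did not overlap (-0.78 ± 0.25, limma adjusted p = 0.999).

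Mmp12, the macrophage elastase, was among the 10 genes with the widest range in injured AC. It was 11.81, 11.59 and 10.94 in injured PCA and 8.30, 9.80 and 11.07 in injured AC, against 6.90 to 8.03 in the 6 controls. AC injury 1 was the low array. Ccl9, a chemokine, did not overlap, at 9.60, 8.65 and 8.68 against 6.61, 7.81 and 8.24 (1.42 ± 0.36, limma adjusted p = 0.999).

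Markers of neighbouring tissue were counted too. Of 18 adipocyte markers 12 were called higher in control PCA (median 0.77), where 3.24% of all genes were, and 0 after injury (median 0.02). Adipoq, adiponectin, was 10.15 to 10.55 in control PCA and 8.72 to 8.75 in control AC, and 8.23, 9.51 and 8.64 in injured PCA against 8.12, 9.15 and 8.45 in injured AC. PCA injury 2 and AC injury 2, the injured arrays of high thyroid markers, were the highest of their groups.

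Of the 16 cartilage markers 10 were called higher and 1 lower in control PCA (median 0.90). Of all genes 3.24% were called higher and 7.39% lower there. After injury 14 of the 16 lay lower (median -0.22, 0 called), as did 54.2% of all genes. Without PCA injury 3 and AC injury 2 the median of the cartilage markers was -0.03. Chad, chondroadherin of cartilage matrix, did not overlap, at 11.17, 11.42 and 11.49 in injured PCA and 12.03, 11.79 and 11.71 in injured AC (-0.48 ± 0.13). Col2a1, the main cartilage collagen, was 9.83, 9.50 and 8.98 against 9.14, 9.82 and 9.05. Of 7 tendon markers 6 lay lower in injured PCA, with a median of -0.37 after 0.31 in controls, and the injured list means did not overlap. Fmod, fibromodulin, was 10.23, 9.79 and 10.12 against 10.52, 10.67 and 10.56 (-0.54 ± 0.14), after 0.56 ± 0.14 in controls. The part of these tissues in the muscle differences was not tested.

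The squamous markers, 14 of 15 called lower in control PCA (median -3.18), had an injured median of 0.02 and 0 calls. Krt14, a basal keratin, was 7.29, 8.68 and 7.77 in control PCA, 10.84, 10.38 and 10.33 in control AC, 9.78, 10.04 and 10.33 in injured PCA, and 10.61, 10.19 and 10.05 in injured AC. The list mean was 10.17, 10.59 and 10.84 in injured PCA and 10.73, 10.08 and 10.70 in injured AC. Of the 51 developmental transcription factors, 6 were called lower in control PCA, where 7.39% of all genes were, and 0 after injury. Among them Pitx1, a homeobox factor, went from -1.07 ± 0.21 to -0.08 ± 0.21, and Twist1, a mesenchymal factor, from -0.70 ± 0.12 to -0.21 ± 0.12. The change of neither gene was called.

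**Figure D5:**
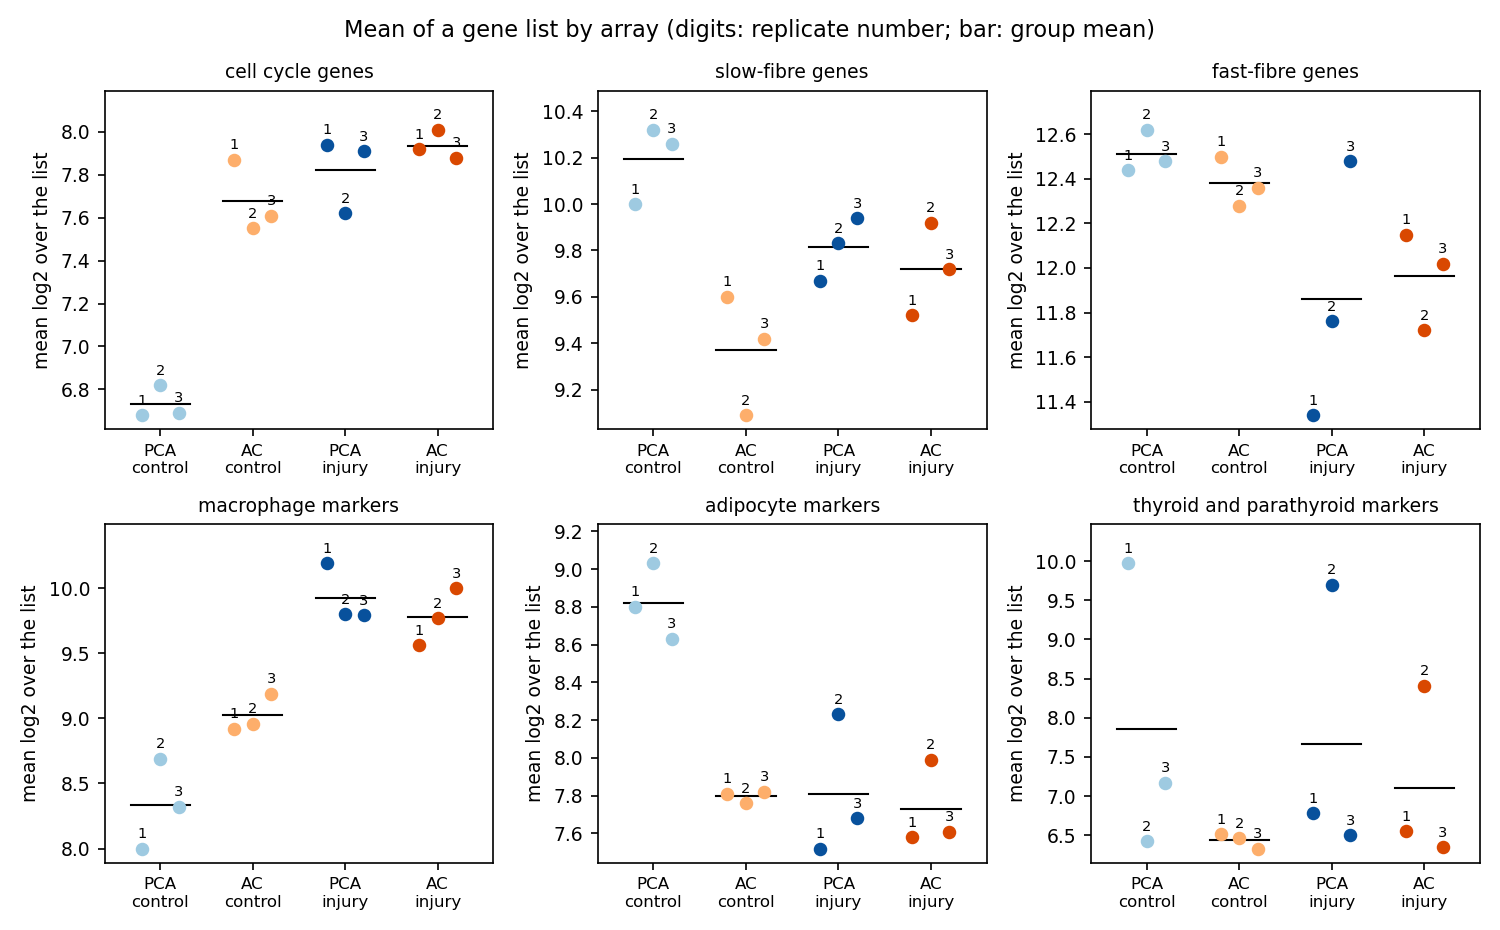
Mean log2 value over 6 gene lists in each of the 12 arrays, with the replicate number above each point and the group mean as a bar. The controls separate by muscle in the cell cycle, slow-fibre, macrophage and adipocyte lists, whereas the injured groups overlap in all 6 lists and single injured arrays stand apart in the fast-fibre and the thyroid and parathyroid lists.

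Over all 30 lists, the injured group means overlapped in 28, and in 29 the range within injured PCA was wider than the difference between the group means. In the exact two-sided permutation test the smallest p that 3 arrays against 3 allow is 0.1, and adjusted over the 30 lists the smallest p was 0.913.

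Some genes did not overlap between the muscles in either state. Those named here were chosen after their values were seen, since no gene was called in both states, and none was called between the injured muscles. Of the 1523 control calls, 77 (5.06%) had injured groups that did not overlap in the same direction and 26 (1.71%) in the opposite one. Together that is 6.76%, against 6.49% of all genes. By direction, 13 of 464 (2.8%) stayed higher, against 2.21% of all genes, and 15 turned lower. Of the 1059 lower ones 64 (6.04%) stayed lower, against 4.28% of all genes, and 11 turned higher. Agtr2, the type 2 angiotensin receptor, was 6.65, 7.33 and 6.88 in control PCA and 7.75, 8.01 and 8.16 in control AC. It was 7.92, 7.04 and 7.79 in injured PCA and 8.84, 8.66 and 8.51 in injured AC, so the difference was -1.02 ± 0.23 in controls and -1.09 ± 0.23 after injury (limma adjusted p = 0.0176 and 0.938).

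Fgf10, a growth factor of mesenchyme, was 7.75 to 8.17 in control PCA and 8.38 to 8.59 in control AC, and 7.64, 7.55 and 7.79 in injured PCA against 8.42, 8.22 and 8.04 in injured AC. The differences were -0.53 ± 0.13 and -0.57 ± 0.13. Cmahp, the gene given earlier that separates by label, had -0.91 ± 0.18 in controls and -0.95 ± 0.18 after injury. Plet1 had -1.16 ± 0.27 and -0.84 ± 0.27, and Dkk2, a Wnt antagonist, -0.91 ± 0.18 and -0.57 ± 0.18. On the higher side differences were smaller: Lpl, lipoprotein lipase, had 0.63 ± 0.09 and 0.21 ± 0.09, and Rfesd 0.40 ± 0.09 and 0.28 ± 0.09. The change was -0.42 ± 0.13 in Lpl (limma adjusted p = 0.14) and was called in none of the 7. In all 7 genes the injured arrays did not overlap, and without PCA injury 3 and AC injury 2 they had differences of -1.20 (Agtr2), -0.64 (Fgf10), -0.92 (Cmahp), -1.22 (Plet1), -0.80 (Dkk2), 0.19 (Lpl) and 0.32 (Rfesd).

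Other genes separated the injured muscles and not the controls, again without a call and chosen after their values were seen. Sctr, the secretin receptor, was 8.13, 7.93 and 7.32 in injured PCA and 5.94, 6.73 and 6.81 in injured AC (1.30 ± 0.23, limma adjusted p = 0.522), against 0.48 ± 0.23 in controls. Zbtb16, a zinc finger repressor, was 8.79, 7.99 and 8.43 against 9.60, 9.25 and 9.37 (-1.0 ± 0.17, limma adjusted p = 0.522), with 0.41 ± 0.17 in controls. C6, a complement component, was 7.17, 7.61 and 7.22 against 8.49, 7.90 and 8.10 (-0.83 ± 0.17, limma adjusted p = 0.938). Olr1, a receptor for oxidised lipoprotein, was 7.20, 6.22 and 6.59 against 5.28, 5.78 and 5.80 (1.05 ± 0.23, limma adjusted p = 0.938). The difference of differences was called in none of these 4 genes.

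With unnamed loci left out, the 38 genes called without the 2 arrays were led by Clca4l (-4.12), Cyp4a8 (-2.80) and Upk3bl1 (-2.35). All 3 are given above array by array. Klk6, a kallikrein-related protease of epithelia, was 6.93 and 7.0 in PCA injury 1 and 2 and 8.49 and 8.35 in AC injury 1 and 3, a difference of -1.46, while the arrays left out stood at 8.51 (PCA injury 3) and 7.15 (AC injury 2). Mstn, myostatin, the inhibitor of muscle growth, was 6.72 and 7.40 against 8.36 and 8.53 (-1.39), with 8.96 and 7.84 in the arrays left out, and 9.80 to 10.27 in all 6 controls. Scara5, a ferritin receptor, was 8.77 and 9.10 against 10.37 and 10.11 (-1.30), and Bglap, osteocalcin, 6.53 and 6.37 against 8.03 and 7.73 (-1.43). Sctr was higher, by 1.66. With all 6 arrays none of these 8 genes was called.

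More genes varied widely among the injured PCA arrays than among those of AC. The range over 3 arrays was at least 1 in 491 genes of injured PCA (3.43%) and 227 of injured AC (1.58%), against 397 and 99 in the PCA and AC controls. The median SD was 0.134 in injured PCA and 0.114 in injured AC, and 0.115 and 0.101 in the controls. PCA injury 2 lay at least 1 above both others of its group in 103 genes and PCA injury 3 in 64, against 20 in PCA injury 1. AC injury 2 lay at least 1 below both others in 47 genes and above in 31, whereas AC injury 1 and 3 each lay below in 9 and above in 3 and 5.

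The genes above in PCA injury 2 were led by thyroid and parathyroid products. Pth, parathyroid hormone, was 7.90, 13.29 and 5.38 in injured PCA and 5.44, 12.69 and 5.57 in injured AC. Tg, thyroglobulin, was 11.34, 13.91 and 8.44 against 7.02, 13.59 and 5.93, and Calca, the calcitonin gene, 5.48, 10.71 and 5.05 against 5.21, 7.22 and 4.99. The highest values thus sat in PCA injury 2 and AC injury 2, and in controls in PCA control 1 (Pth 13.45, Tg 13.93 and Calca 10.90). Tg was also high in PCA injury 1 (11.34) and in another PCA control array (13.1). In those arrays Pth was 7.90 and 5.12, and Calca was 5.48 and 5.37. The fit without the arrays of high thyroid transcripts therefore did not leave out every array of high Tg.

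Pax8, a thyroid transcription factor, was 6.64, 10.90 and 6.01 in injured PCA and 6.11, 8.81 and 6.10 in injured AC. Of the 10 genes with the widest range in injured PCA, the other thyroid ones were Dio1, Slc26a7, Iyd and Tshr, with ranges of 4.73, 4.47, 3.95 and 3.82. Tg had the largest injured difference of all 14324 genes, 2.38 ± 2.29 (SE), and its groups overlapped. Ly6al, of the Ly6 family, was among the widest in injured AC, at 7.50, 6.06 and 4.84.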

How the data were processed

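The values the authors deposited are log2 expression, 1 for each probe set on each array. Base 2 is an inference from their span (2.57 to 14.04) and from RMA, which the submitters' processing notes name with Partek, without versions or roles. Since RMA usually includes quantile normalization, a difference is set against the rest of the same array. Array medians were 7.11 to 7.17. Precision is limited by the number of arrays (8 residual degrees of freedom, with 3.14 added by limma).

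Of 27342 probe sets, 15097 had 1 gene symbol in the platform annotation, 323 several and 11922 none, and the last 2 kinds were not tested. By gene identifier 15067 matched RefSeq (GRCr8), 30 did not, and 0 symbols changed. Where a gene had more than 1 probe set (499 genes), that of the highest mean over the 12 arrays stood for it.

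One limma model (3.58.1, R 4.3.3) gave each of the 4 groups a mean over all 12 arrays (lmFit and eBayes, two-sided, no filter), after a test on simulated data. Figures were drawn with Python 3.11.15 and matplotlib 3.10.9. The members and the 30 gene lists (605 entries, 511 measured) were chosen with earlier results of these data known. The naming rule took the largest called differences, control differences that remained or changed, the 10 widest ranges in each injured group, and for each list its first member and the 3 members of smallest p. No gene met its parts on called, remaining or new injured differences, so genes named in their place were picked with their values known. The CCAAT and TTTGAA motifs, and the fit without PCA injury 3 and AC injury 2, were added after seeing the data. Alternatives covered normalization, filters, probe set choice, array weights, thresholds, covariates and each array left out.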

Additional observations from a re-analysis of the deposited data

Results flagged for a closer look

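For 22 genes the difference between the muscles was not the same in injured and control animals, as tested by the difference of differences in limma (adjusted p under 0.05 over 14324 genes). Among the 18 in which the injured value lay above the control value, the change with its SE was, in log2, Il1rn (3.68 ± 0.55), Rab7b (1.5 ± 0.24), Ccna2 (1.37 ± 0.21), Top2a (1.34 ± 0.19), Kif23 (1.32 ± 0.21), Nusap1 (1.25 ± 0.20), Ass1 (1.19 ± 0.17), Anxa2 (0.92 ± 0.12), Slc16a6 (0.83 ± 0.12), Baiap2 (0.80 ± 0.12), Upk1a (0.75 ± 0.12) and Ephb3 (0.71 ± 0.11). The histone genes among them, whose copies share probe sequence, were Hist1h2ail1 (1.33 ± 0.16), Hist1h2af (1.25 ± 0.16), H2ac4 (1.18 ± 0.19), Hist1h2an (1.18 ± 0.14), Hist2h3c2 (1.18 ± 0.13) and H2bc18 (1.15 ± 0.17). The 4 in which the injured value lay below the control value were Ucp1 (-3.55 ± 0.49), Tnnc1 (-2.0 ± 0.31), Vsig2 (-1.02 ± 0.13) and Kcns2 (-0.53 ± 0.09). The limma adjusted p ranged from 0.018 to 0.0458. The same change was called for 0 genes without PCA injury 3 and AC injury 2, with the squamous marker mean as a covariate, or without the 3 arrays of high thyroid transcripts. The squamous marker mean separates the control muscles without overlap, so the fit with it cannot tell the markers from the muscle. No cause was tested.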

How the results depend on the processing

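Between the injured muscles 0 genes were called by limma under each of the 26 other settings (277 to 1462 genes at an unadjusted p under 0.05), and 38 without PCA injury 3 and AC injury 2. Control differences that remained numbered 0 under each other setting fitted with all 4 groups and 23 without those 2 arrays. In the controls, 1523 calls became 2629 with array weights, 560 at an adjusted p under 0.01, 357 with at least 2-fold as well, 812 without the 3 arrays of high thyroid transcripts, 2 with each array's squamous marker mean as a covariate, and 714 to 1814 with single arrays left out (714 without AC control 1, 797 without AC control 3, 881 without PCA control 1, 805 without PCA control 3). The 22 genes called in the difference of differences, all of them control differences that changed, became 347 (of which 338 were control differences) with array weights, 64 (63) with a group mean of at least 7, 35 (34) with a mean of at least 6, 39 (38) after quantile normalization again, 35 (33) with trend and robust settings, 16 (14) with at least 2-fold as well, and 15 (15) with array medians centred. They became 0 at an adjusted p under 0.01, without the thyroid-high arrays, with the squamous covariate, and without PCA injury 3 and AC injury 2. With single arrays left out they ranged from 0 to 406 (0 to 402 control differences). The labels do not say whether replicate numbers pair the arrays. Deviations of same-numbered arrays correlated between -0.39 and 0.34, and 1 of 12 arrays correlated best with its own number. Many of these pairs join injured and control arrays, which come from separate surgery groups. Between injured PCA and injured AC the values were -0.39, 0.34 and 0.27 for numbers 1, 2 and 3. Between the controls they were -0.05, -0.34 and 0.03. These values do not decide whether PCA and AC arrays share animals. With the replicate number as a block, 0 genes were called between the injured muscles, 1163 between the controls and 0 in the difference of differences. Of the 22 genes, none reversed its sign under any other setting, in 571 values of which 251 stayed past the threshold. The cause of these changes was not tested. The squamous marker mean separates the control muscles without overlap, so the fit with it cannot tell the markers from the muscle. The number of arrays, 3 a group, limits the precision: the median half-width of the 95% interval of an injured difference was 0.237.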

Other observations

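A few genes known to be induced by interferon were read array by array. They were chosen after their values were seen, so these values are a description, and none was called in either state. Mx2, an antiviral GTPase, was 9.81, 9.54 and 9.59 in injured PCA and 8.25, 8.65 and 9.10 in injured AC (0.98 ± 0.39, SE), and its control difference was also 0.98 ± 0.39, though the controls overlapped, at 9.92, 10.23 and 8.45 in PCA and 8.54, 8.20 and 8.93 in AC. Usp18, which removes the ubiquitin-like protein Isg15, was 8.40, 7.97 and 8.60 against 7.20, 7.32 and 7.77 (0.89 ± 0.23), with 0.66 ± 0.23 in controls. Dhx58, a sensor of viral RNA, was 7.09, 7.0 and 6.95 against 6.47, 6.62 and 6.69 (0.42 ± 0.11), with 0.30 ± 0.11 in controls. In all 3 genes the injured groups did not overlap, with PCA injury 3 inside the PCA group and AC injury 2 inside the AC group. Herc6 was 7.68, 7.66 and 7.61 against 6.97, 7.53 and 7.23 (0.41 ± 0.21), and Oas1a 8.11, 7.98 and 8.25 against 7.57, 7.66 and 7.74 (0.46 ± 0.22). In controls Oas1a overlapped, with a difference of 0.15 ± 0.22. Not every such gene lay higher in injured PCA. Cxcl9, a chemokine that interferon induces, was lower there, at 8.42, 8.03 and 8.68 against 8.87, 8.85 and 8.87. Its injured groups did not overlap (-0.49 ± 0.23), and its control difference was 0.62 ± 0.23.

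Some cartilage and tendon genes lay lower in injured PCA and not in control PCA. Ucma, a secreted cartilage protein, was 9.19, 9.46 and 9.49 in injured PCA and 10.43, 10.19 and 9.87 in injured AC (-0.78 ± 0.31), against 0.64 ± 0.31 in controls. Tnmd, tenomodulin of tendon, was 6.93, 6.49 and 7.17 against 7.13, 7.50 and 7.92 (-0.65 ± 0.22), with 0.55 ± 0.22 in controls. Kera, keratocan, was 8.01, 6.95 and 8.61 against 8.92, 8.58 and 9.06 (-1.0 ± 0.35), with 0.08 ± 0.35 in controls. The injured groups did not overlap in Ucma and overlapped in Tnmd and Kera, and the change was called in none of the 3.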
